A study of Mus musculus with 4 samples.

Results

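The cells described here are mouse T cells that carry messenger RNA of Csf2, Il13, Ccl1, Penk and Tnfsf11, genes of secreted or membrane-bound signals, in 4 droplet single-cell RNA libraries. Cells were barcodes with at least 1000 unique molecular identifiers (UMIs, 1 for each captured transcript molecule), at least 200 genes and at most 10% of UMIs from mitochondrial genes. A T cell had at least 1 UMI of Cd3d, Cd3e or Cd3g, which encode chains of the T cell receptor complex, 0 of Foxp3 (the factor of regulatory T cells), fewer than 5 of Lyz2 (a lysozyme of myeloid cells) and fewer than 3 of Mki67 and Top2a together (genes of dividing cells). A rule cell was such a T cell with at least 3 UMIs of the 5 signal genes together. The cells were thus chosen by their own counts of these genes, so the levels of the 5 genes are a description and were not tested. In all, 440 of 15752 cells were rule cells, and 4578 further T cells met every part of the rule but the last and are called other T cells.

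The 4 libraries carry the treatment names IgG, Ac, C and aC+C, which the labels do not spell out, with 1 library each. The labels' titles call the samples immune cells that infiltrated a tumor, under a series title on CD8+ T cells, while the source and cell type fields read Goblet cells, the protocol describes a sort of mucin-reporter cells and the genotype field holds an age of 6-8 weeks. The labels do not state the tumor, the mouse strain behind these samples, the doses or the number of mice pooled. Muc2, the main mucin of goblet cells, had 0 UMIs in the rule cells of each library and 0, 1, 1 and 0 UMIs in macrophage-like cells, whose definition follows with the counts of cells. Cd3e read 426, 482, 382 and 449.6 CPM (UMIs per 1000000 UMIs of the cells summed) in the rule cells, which is no check of the labels because the rule asked for a UMI of a Cd3 gene. Values given in fours are in the order IgG, Ac, C and aC+C throughout. Because each treatment had 1 library, no difference between treatments could be tested, and intervals on a library's value cover counting error only.

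The libraries held 61519049 to 75665201 UMIs, of which 3436, 4027, 4208 and 4081 cells were kept. The rule cells numbered 125, 131, 107 and 77, with median depths of 8666, 9051, 8479 and 8983 UMIs per cell, against 8560, 8115, 6564 and 7150.5 in the other T cells. Of the 15752 cells, 56 had a barcode that occurred in more than 1 library, and 3 of these were among the 440 rule cells. A doublet caller marked 4 rule cells, 2 in IgG and 2 in Ac, which were kept. The rule cells made up 9.87% (exact 95% interval 8.29 to 11.7), 9.30% (7.84 to 10.9), 9.60% (7.93 to 11.5) and 6.27% (4.98 to 7.77) of the T cells. The share was lowest in aC+C, and its interval did not reach the values of the other 3 libraries. As a measure of free RNA, 0 of 299, 1 of 704, 2 of 750 and 2 of 838 macrophage-like cells (at least 5 Lyz2 UMIs, a UMI of C1qa, C1qb or C1qc, and no Cd3d, Cd3e or Cd3g) had 3 or more UMIs of the 5 genes, and for 0 of 299 the exact interval reaches 1.23%. Barcodes of at most 50 UMIs, summed, read 22.2 to 40.0 CPM for Penk, 21.2 to 42.0 for Ccl1 and 15.6 to 28.0 for Tnfsf11. They read 9.44 to 26.5 CPM for Csf2 and 2.95 to 8.52 for Il13. In every library these values lay above the other T cells, which the rule held under 3 such UMIs, and below the rule cells.

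Helper T cells direct other cells through secreted cytokines and ligands of the tumor necrosis factor (TNF) family. Csf2 encodes GM-CSF, which expands and activates myeloid cells, Il13 is with Il4 and Il5 a cytokine of type 2 immunity, Ccl1 is the ligand of the chemokine receptor Ccr8, and Tnfsf11 encodes RANKL, which drives osteoclast formation and lymph node development. Penk encodes the precursor that proteases cut into enkephalins, opioid peptides of nerve cells that activated T cells can also make. Many of these genes are switched on after the T cell receptor is engaged, through NFAT, AP-1 and NF-kB factors, and Gata3 is the factor that opens the type 2 cytokine locus.

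Il4, Il13, Il5, Csf2 and Il3 lie on mouse chromosome 11, with Il13 at chr11:53631324-53634702 and Csf2 at chr11:54247271-54249667 (both on the minus strand, GRCm38). Ccl1 is also on chromosome 11 and Tnfsf11 is on chromosome 14. The promoters of 3 of the rule genes follow, because these genes are part of the rule that defines the cells. Each window has 300 bases around the transcription start, is on the minus strand, is printed 5′ to 3′ and comes from RefSeq on GRCm38.p6. They lie at chr11:53634653-53634952, chr11:82179763-82180062 and chr14:78307994-78308293. Capitals mark GGAAA, the core letters that NFAT factors bind, or its reverse complement TTTCC.
Il13: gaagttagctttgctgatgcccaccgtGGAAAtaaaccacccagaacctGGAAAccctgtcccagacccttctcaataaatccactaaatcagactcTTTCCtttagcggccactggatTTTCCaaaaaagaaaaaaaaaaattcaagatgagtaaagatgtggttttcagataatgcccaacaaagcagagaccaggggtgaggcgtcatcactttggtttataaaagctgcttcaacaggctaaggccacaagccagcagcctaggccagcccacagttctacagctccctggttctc
Ccl1: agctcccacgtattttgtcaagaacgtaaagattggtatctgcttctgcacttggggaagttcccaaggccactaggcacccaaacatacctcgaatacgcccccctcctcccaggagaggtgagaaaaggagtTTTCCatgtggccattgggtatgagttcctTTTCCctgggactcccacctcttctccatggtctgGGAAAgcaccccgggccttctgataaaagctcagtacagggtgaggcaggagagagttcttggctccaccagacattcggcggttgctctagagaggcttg
Tnfsf11: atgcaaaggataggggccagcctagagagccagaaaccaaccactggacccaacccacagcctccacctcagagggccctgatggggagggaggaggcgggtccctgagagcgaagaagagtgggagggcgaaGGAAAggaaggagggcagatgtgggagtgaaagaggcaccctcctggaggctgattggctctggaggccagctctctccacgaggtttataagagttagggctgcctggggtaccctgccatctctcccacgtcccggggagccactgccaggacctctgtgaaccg
The letters occur 4 times in the Il13 window, 3 times in the Ccl1 window and 1 time in the Tnfsf11 window. On either strand they are found in 61.3% of 32851 RefSeq mouse promoters of the same length, so a match is a description of the sequence and not a site of binding.

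Tnfsf11 was the rule gene found in most rule cells. It had a UMI in 364 of 440 (82.7%), Penk in 178 (40.5%), Ccl1 in 175 (39.8%), Csf2 in 146 (33.2%) and Il13 in 40 (9.09%). The cells were therefore a mixture: 150 had 1 of the 5 genes (97 of them Tnfsf11), 161 had 2, 90 had 3, 34 had 4 and 5 had all 5. The most frequent pairs were Ccl1 with Tnfsf11 in 143 cells, Penk with Tnfsf11 in 140 and Csf2 with Tnfsf11 in 120, while Csf2 and Il13 met in 18 cells. The set is described better by Tnfsf11, Penk, Ccl1 and Csf2 than by Il13.

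The summed level of Tnfsf11 was 329.9, 348, 315 and 272 CPM in the rule cells and 11.4, 9.98, 18.6 and 9.45 CPM in the other T cells. Penk read 639, 842, 294 and 256 CPM against 1.18, 2.16, 1.36 and 1.55 CPM, high in IgG and Ac and lower in C and aC+C. Ccl1 read 358, 542, 737 and 703 CPM against 1.52, 1.83, 2.95 and 2.00 CPM, lowest in IgG. Csf2 read 297, 416, 341 and 215 CPM against 2.78, 1.83, 2.84 and 1.27 CPM, highest in Ac. Il13 read 109, 161, 330.2 and 33.5 CPM against 0.337, 0.166, 0.454 and 0.0909 CPM. Single cells carried much of some of these sums: 1 cell held 78.1% of the Il13 UMIs of IgG and 33.8%, 52.2% and 53.8% of those of Ac, C and aC+C, and 1 cell held 40.3% of the Csf2 UMIs of IgG. For Tnfsf11 no cell held more than 9.21% in any library. The rule set no limit on Tnfsf8 (the ligand of CD30) and Rora (an orphan nuclear receptor of type 2 and type 17 cells), with which the group had been proposed. Tnfsf8 read 225, 221, 341 and 179 CPM against 28.3, 20.5, 48.8 and 18.5 CPM, and Rora 350.3, 446, 286 and 310.4 CPM against 121, 84.9, 129 and 68.1 CPM, and in both the rule cells of every library lay above the other T cells of every library. In T cells with Foxp3, which the rule left out, Rora read 291, 368, 264 and 259 CPM, overlapping the rule cells. Tnfsf8 read 15.8, 11.4, 34.3 and 15.0 CPM in them, below the rule cells.

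Cells near the threshold were intermediate in Tnfsf8 and in the share with Cd4 alone. For Rora the cells with exactly 3 UMIs lay within the range of the rule cells' library values. The 87 cells with exactly 3 UMIs of the 5 genes read 108 CPM for Tnfsf8 and 321 CPM for Rora, the 179 cells with exactly 2 UMIs read 107 and 195 CPM, and the 3972 T cells with 0 UMIs read 21.7 and 87.8 CPM. Cells with Cd4 and no Cd8a or Cd8b1 were 36.8% of those with 3 UMIs, 29.6% of those with 2 and 9.79% of those with 0. The median rule cell had 7 UMIs of the 5 genes and the highest had 403, and 99 cells had 20 or more.

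**Figure D1:**
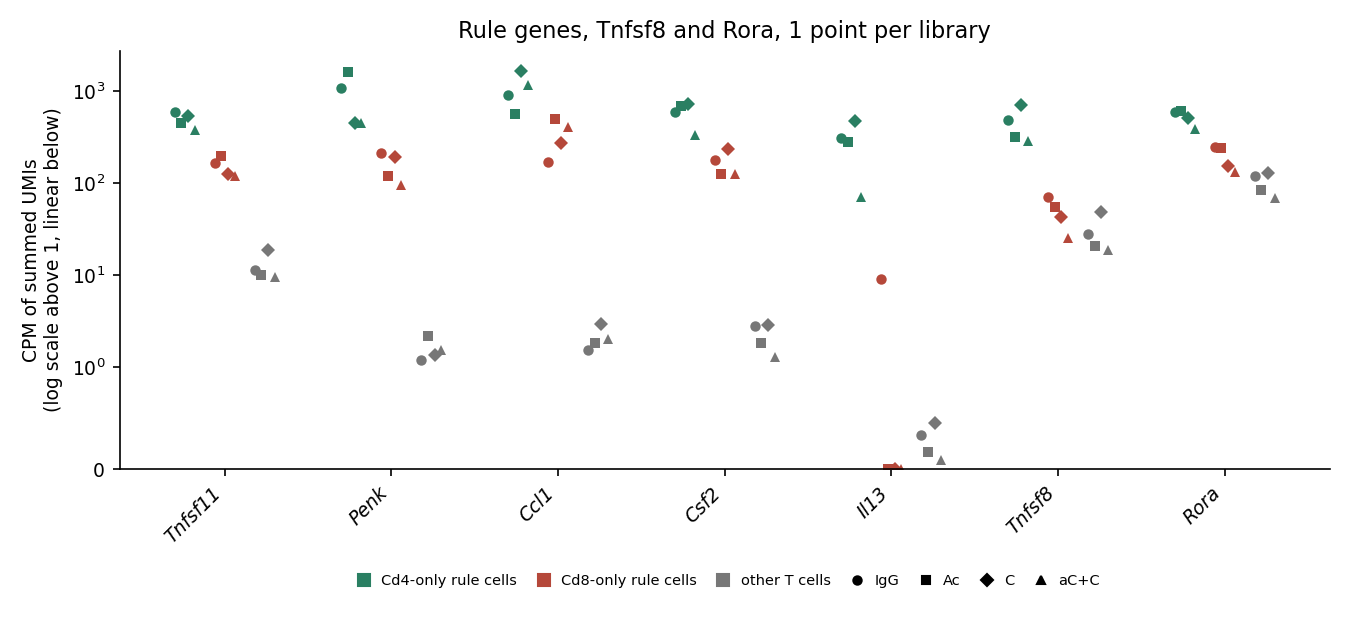
Summed level of the 5 rule genes and of Tnfsf8 and Rora in each library, in CPM on an axis that is linear near 0 and logarithmic above; each point is 1 library's Cd4-only rule cells, Cd8-only rule cells or other T cells. Il13 lies at 0 in the Cd8-only rule cells of 3 libraries, while Tnfsf11 is present in both classes in all 4.

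Few other type 2 cytokine genes accompanied Il13. Il5, which sustains eosinophils, had a UMI in 19 rule cells, Il4 in 15 and Il10 in 14, while Il3 had one in 2 and Il9 in 0. Il5 summed to 31.2, 19.8, 37.9 and 2.58 CPM in the rule cells and 0.253, 0.0832, 0.34 and 0 CPM in the other T cells, a log2 fold change of 6.95 ± 0.38 SE, adjusted p = 7.33e-08 by edgeR's quasi-likelihood test with Benjamini-Hochberg adjustment over 10481 genes. Of these, 702 were higher (6.7%) and 830 lower (7.92%), 14.6% in all. Among the most lowered were Ogn, Lum, Col6a3 and Col3a1, and of 8 fibroblast or tumor genes tested 7 were lower (median -4.89). In IgG, 91.3% of the Il5 UMIs came from 1 cell, and 1 cell of the 440 held 70.3% of all Il4 UMIs. Il21, a cytokine of helper cells that help B cells, read 6.11, 8.49, 4.03 and 9.02 CPM against 0.168, 0, 0.34 and 0.182 CPM from 16 cells, a log2 fold change of 5.24 ± 0.61 SE, adjusted p = 5.8e-05. Areg, which encodes the growth factor amphiregulin, was found in 105 cells (23.9%) and read 325, 160.0, 78.1 and 366 CPM against 86.8, 63.7, 46.3 and 57.5 CPM, a log2 fold change of 1.72 ± 0.20 SE, adjusted p = 6.5e-05. It was lowest in C and highest in aC+C within the rule cells, and the groups did not overlap except that the rule cells of C lay below the other T cells of IgG. The filter before the test kept genes high enough in either group, and Il5 and Il21 passed it only through the rule cells. The tests of Il5, Il21 and Areg compare mixtures that differ in co-receptor make-up. The p-values here and below treat the 4 libraries, which are 4 treatments, as replicates of the contrast.

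Among opioid peptide genes, Penk was the one that many rule cells held. Pdyn and Pnoc, the precursors of dynorphin and nociceptin, the receptor genes Oprm1, Oprd1 and Oprk1, the neuronal convertase Pcsk2 and the enkephalin-degrading peptidase Mme all had 0 UMIs in the rule cells. Pcsk1, a convertase of endocrine cells, had 37 UMIs in 14 cells, and Pomc had UMIs in 10. Furin, a protease that cuts many precursor proteins in the secretory pathway and is induced in activated T cells, was found in 299 rule cells (68.0%). It read 284, 316, 219.9 and 249 CPM against 65.3, 62.6, 75.5 and 41.2 CPM in the other T cells and 177, 176, 121 and 145 CPM in macrophage-like cells. Penk was also present in the T cells with Foxp3, which the rule left out, at 83.02, 271, 53.8 and 102 CPM, and 11.2%, 11.5%, 10.7% and 8.04% of these cells had 3 or more UMIs of the 5 genes.

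The rule did not use the co-receptors, which mark helper (Cd4) and cytotoxic (Cd8a and Cd8b1) T cells. Of the 440 rule cells, 213 (48.4%) had UMIs of Cd4 alone, 128 (29.1%) of Cd8a or Cd8b1 alone, 54 (12.3%) of both and 45 (10.2%) of neither. Of the 4578 other T cells, 531 (11.6%) had Cd4 alone, 2716 (59.3%) had Cd8 alone, 126 (2.75%) had both and 1205 (26.3%) had neither. Cd4-only cells were 47.2%, 49.6%, 43.0% and 55.8% of the rule cells, and Cd8-only cells 24.0%, 29.8%, 32.7% and 31.2%. At full depth the Cd4-only share of rule cells was larger than the Cd8-only share in every library, but this order was not kept in thinned cells. With each cell thinned to 1000 UMIs, Cd4-only cells were 19.2%, 27.5%, 13.1% and 22.1% of rule cells. Cd8-only cells were 25.6%, 25.2%, 29.0% and 32.5%, more than Cd4-only cells in IgG, C and aC+C. The largest class was then neither co-receptor, at 52.8%, 46.6%, 57.0% and 44.2%, so many cells lost their class. A cell counts for Cd8 by a UMI of Cd8a or Cd8b1, but for Cd4 only by a UMI of Cd4. The effect of this on the order in thinned cells was not tested. The exact intervals of the Cd4-only and Cd8-only shares overlapped in each library. Before thinning, Cd4-only rule cells had median depths of 6407, 7681, 6780 and 7428 UMIs and Cd8-only rule cells 13476, 11728, 10497 and 10109.5. In other T cells thinned alike, 4.21%, 3.68%, 6.05% and 4.60% were Cd4-only and 48.7%, 53.9%, 34.7% and 46.8% Cd8-only. The cells with both co-receptors were 16.8%, 9.92%, 14.0% and 6.49%, and after removal of the marked doublets they were still 20 of 123 in IgG and 12 of 129 in Ac.

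Read the other way, 35.5%, 35.9%, 22.4% and 22.4% of Cd4-only T cells met the rule, against 4.06%, 4.35%, 7.26% and 3.31% of Cd8-only T cells. The means were 29.1% and 4.74%, a difference of 24.3 percentage points ± 8.46 (SD, n = 4 libraries) that was positive in 4 of 4 libraries, with a two-sided exact sign-flip permutation p of 0.125, the smallest that 4 libraries can give. With the co-receptor class taken from cells thinned to 1000 UMIs and the rule still applied at full depth, the difference was 24.3 points (SD 12.01). This is therefore no check of the rule itself at equal depth. Cd4 itself read 192, 278, 153 and 249 CPM in rule cells against 28.1, 26.04, 41.1 and 26.1 CPM in other T cells, without overlap. Cd8a read 361, 346, 387 and 461 CPM against 574, 659, 388 and 555 CPM, and Cd8b1 269, 303, 296 and 350.4 CPM against 541, 658, 382 and 524 CPM; the Cd8a ranges overlapped and the Cd8b1 ranges did not. With each cell thinned to 1000 UMIs, Cd4 was found in 21.6%, 28.2%, 14.0% and 23.4% of rule cells, 4.47%, 3.92%, 6.35% and 4.60% of other T cells and 0.334%, 0.284%, 0.267% and 0.119% of macrophage-like cells. Zbtb7b, which encodes ThPOK, the factor that fixes the CD4 fate, read 24.4, 16.99, 32.2 and 23.2 CPM against 13.98, 13.2, 15.4 and 10.5 CPM, a log2 fold change of 0.82 ± 0.18 SE with adjusted p = 0.00696. That call ended without C (adjusted p = 0.0551, range over its alternatives 0.00258 to 0.0551).

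**Figure D2:**
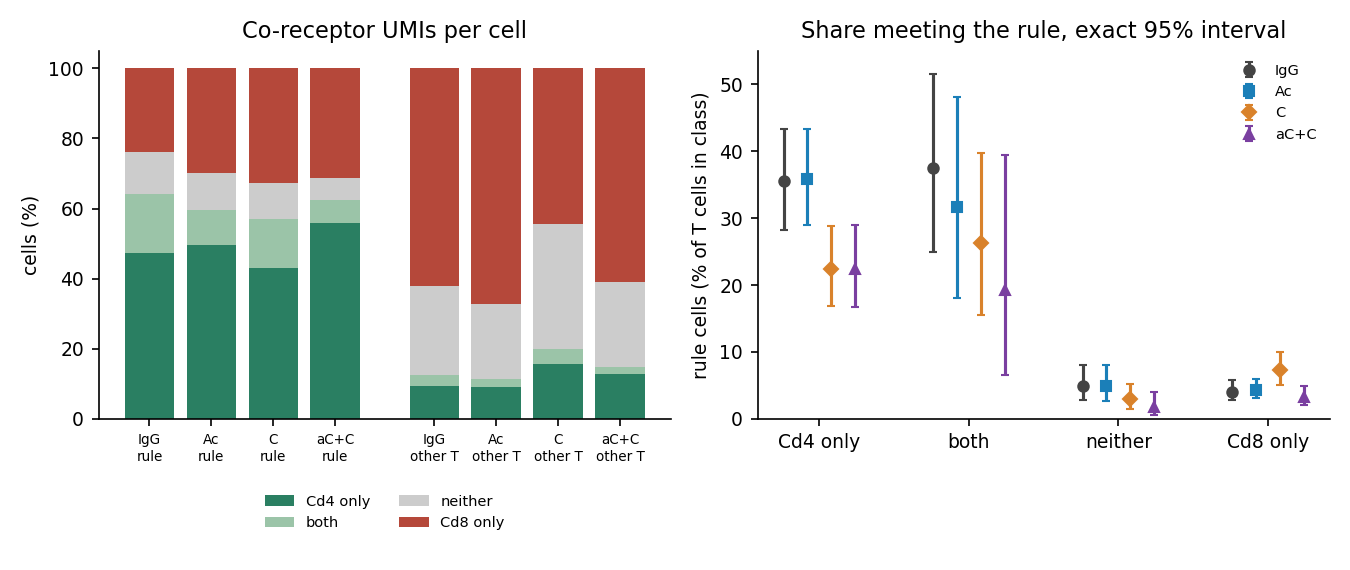
Co-receptor make-up of rule cells and other T cells in each library as stacked shares in percent, and the percent of each co-receptor class that met the rule, with bars to the exact 95% interval. Cd4-only cells make up 43.0% to 55.8% of rule cells, and 22.4% to 35.9% of Cd4-only T cells met the rule.

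Because Cd4-only cells were a larger share of the rule cells than of the other T cells, the rule cells were next set against other T cells of the same co-receptor class: 213 Cd4-only rule cells against 531 other Cd4-only T cells. Most ligands of the TNF family that were tested rose, most naive and memory genes fell, and inhibitory receptors were split. Of 5765 genes tested with edgeR's quasi-likelihood test and Benjamini-Hochberg adjustment, 262 were higher (4.54%) and 322 lower (5.59%), 10.1% in all. The rule genes were not counted, and the median log2 fold change over all genes was 0.000427. The rule cells were deeper, with median depths of 6407, 7681, 6780 and 7428 UMIs against 4657, 4434.5, 3987 and 4222, and against 1 comparison cell per rule cell, the nearest in depth (chosen after the data were seen), 252 genes passed of 4673 tested. These cells stayed shallower, with 388686 UMIs in sum against 595438 in Ac and 321770 against 369422 in aC+C. The count was 357 without Ac and 228 with DESeq2. The genes named below as changed passed in every alternative run for this contrast unless stated.

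Of 11 TNF family ligands tested, 7 rose and 0 fell (median log2 fold change 1.34), Tnfsf8 included, with which the group had been proposed. The filter before the test passed these 11 of 15 listed ligands, Tnfsf4 and Cd70 only through the rule cells. The count is therefore a description of the list. Tnfsf4 read 34.6, 60.5, 20.7 and 37.9 CPM in Cd4-only rule cells and 3.07, 1.79, 1.24 and 4.25 CPM in other Cd4-only T cells, a log2 fold change of 3.73 ± 0.42 SE, adjusted p = 1.25e-05. Tnfsf4 encodes OX40L, which costimulates other T cells, and its lowest rule-cell value lay above every other value. Cd70, the ligand of CD27, read 60.5, 62.1, 31.1 and 43.3 CPM against 4.61, 8.97, 0 and 8.50 CPM (3.16 ± 0.39 SE, adjusted p = 3.13e-05). Lta, which encodes lymphotoxin alpha, rose by 1.59 on the log2 scale, Tnfsf14 (LIGHT) by 1.58 and Tnfsf10 (TRAIL) by 0.95. Cd40lg, by which helper cells activate B cells and dendritic cells, read 99.4, 63.8, 41.5 and 70.4 CPM against 62.99, 78.9, 60.6 and 86.5 CPM, and its log2 fold change of -0.08 did not pass.

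Among secreted factors, Ifng, the cytokine of type 1 immunity, read 361, 341, 98.6 and 279 CPM in Cd4-only rule cells against 155, 183, 79.2 and 111 CPM (0.99 ± 0.15 SE, adjusted p = 0.000262). The rule-cell value of C lay within the range of the other cells and the remaining 3 lay above it. Csf1, a growth factor of macrophages, rose by 1.51. Il17a, the cytokine of type 17 cells, read 6.48, 0, 20.7 and 0 CPM against 79.9, 267, 82.9 and 96.4 CPM, a log2 fold change of -4.42, adjusted p = 8.57e-06. Il17a passed the filter before the test only through the other Cd4-only T cells. Of the 15 genes tested from the list of type 1 factors and receptors, 3 rose and 3 fell, and of 4 type 17 genes 0 rose and 2 fell.

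Il1r2, a decoy receptor that binds interleukin 1 without signalling, changed most among the cytokine receptors. It read 393, 455, 425 and 503 CPM in Cd4-only rule cells and 64.5, 77.1, 45.8 and 43.9 CPM in other Cd4-only T cells, a log2 fold change of 2.95 ± 0.15 SE, adjusted p = 2.09e-09. All 4 rule-cell values were several times the highest value of the other cells, and macrophage-like cells of the same libraries read 79.3, 78.4, 65.5 and 49.6 CPM. Il6ra, the interleukin 6 receptor, read 6.48, 1.68, 5.19 and 8.12 CPM against 24.6, 17.9, 34.7 and 35.4 CPM (-2.39, adjusted p = 0.000824). Il6ra passed the filter before the test only through the other Cd4-only T cells. Of 25 cytokine receptors tested, 3 rose and 7 fell (median 0.0000663). Receptors of the epithelial cytokines that drive type 2 responses did not pass: Il1rl1 (the receptor of interleukin 33) read 62.6, 13.4, 64.8 and 54.1 CPM against 47.6, 35.9, 33.4 and 38.3 CPM with a log2 fold change of 0.27, and Crlf2 (of TSLP) gave 0.34.

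Inhibitory receptors of chronically stimulated T cells were split. Of 14 tested, 6 rose and 4 fell. Pdcd1 read 307, 482, 236 and 560.3 CPM in Cd4-only rule cells and 178, 271, 104 and 225 CPM in other Cd4-only T cells, a log2 fold change of 1.02 ± 0.12 SE, adjusted p = 1.73e-05. Lag3 rose by 1.26 and Cd200 by 2.08, while Klrg1, a marker of terminal effector cells, fell by 2.38 on the log2 scale. Pdcd1 encodes PD-1, and its C value in the rule cells lay below the Ac value of the others. Among costimulatory receptors Tnfrsf4 (OX40) rose by 0.58 and Cd27 fell by 1.23, within a list of 21 of which 5 rose and 7 fell.

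Genes of migration and of the resting state were mostly lower. Of 25 chemokine receptors and trafficking genes 3 rose and 13 fell (median -0.52), and of 12 naive and memory genes 1 rose and 9 fell (median -1.15). Klf2 read 45.4, 23.5, 135 and 35.2 CPM in Cd4-only rule cells and 363, 429, 619 and 534 CPM in other Cd4-only T cells, a log2 fold change of -3.16 ± 0.22 SE, adjusted p = 8.65e-08. Klf2 is the factor that keeps T cells in circulation, and its highest rule-cell value, in C, was below the lowest of the other cells. Its target S1pr1, the receptor for exit from tissue, gave -2.78 ± 0.22 SE (adjusted p = 3.2e-07). Ccr2, Cxcr3 and Itga4 fell by 1.95, 1.99 and 1.66 on the log2 scale. Cxcr6, a receptor of tissue-resident T cells, rose by 0.73. Ccr8, the receptor of the rule gene product Ccl1, read 23.8, 25.2, 33.7 and 59.6 CPM against 6.15, 8.97, 9.90 and 15.6 CPM (1.76 ± 0.32 SE, adjusted p = 0.00116), without overlap. Ccr8 passed the filter before the test only through the rule cells.

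Of 18 lineage factors tested in the Cd4-only class, 4 rose (Rora among them, with which the group had been proposed) and 7 fell. Gata3 read 235, 168, 223 and 181 CPM against 134, 159.6, 137 and 125 CPM, a log2 fold change of 0.53 ± 0.14 SE, adjusted p = 0.0191. That call was lost with DESeq2 (adjusted p = 0.182), without IgG and without C, with a range over the alternatives of 0.0122 to 0.182. The groups did not overlap, with 168 CPM in Ac of the rule cells close to 160 CPM in Ac of the others. Tcf7 and Lef1, factors of naive and stem-like T cells, fell by 1.81 and 1.24 on the log2 scale, and Maf, a factor of interleukin 4, 10 and 21 production, by 1.09. Of 22 factors induced by T cell receptor signalling, 11 rose and 1 fell (median 0.37). Bhlhe40 read 1078, 981, 1110.0 and 864 CPM in Cd4-only rule cells and 664, 585, 635 and 425 CPM in other Cd4-only T cells, a log2 fold change of 0.81 ± 0.10 SE, adjusted p = 1.81e-05. Bhlhe40 is known for driving Csf2 in helper cells, and its groups did not overlap. Nfkb1 rose by 0.58 and Gadd45b by 1.62.

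Outside the lists, Lgals7, which encodes galectin 7 of stratified epithelia, read 225, 469, 150.4 and 217 CPM in Cd4-only rule cells against 10.8, 12.6, 54.5 and 46.8 CPM (2.94 ± 0.36 SE, adjusted p = 2.28e-05). The lowest rule-cell value was well above the highest other value. Ramp1, part of the receptor for the neuropeptide CGRP, read 257, 341, 329 and 171 CPM against 72.2, 172, 123 and 94.96 CPM (1.26 ± 0.15 SE, adjusted p = 2.68e-05), where the aC+C value of the rule cells was just below the Ac value of the others. Of 12 cytotoxic genes 2 rose and 2 fell, the latter being Gzma (-3.94) and Gzmb (-2.21), which encode granzymes.

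The 128 Cd8-only rule cells were set against 2716 other Cd8-only T cells in the same way. Interferon gamma, lymphotoxin, the chemokine Xcl1 and the receptors of the OX40 and GITR pathways rose, and Gzmk, which encodes a granzyme, and the chemokine Ccl5 fell. Cytotoxic genes as a list moved in both directions, with 8 of 19 higher and 5 lower. By edgeR's quasi-likelihood test with Benjamini-Hochberg adjustment, 277 of 9063 genes were higher (3.06%) and 267 lower (2.95%), 6% in all. Median depths were 13476, 11728, 10497 and 10109.5 UMIs against 10216, 9012, 9254 and 9540, and with depth-matched cells (chosen after the data were seen) 185 of 5120 genes passed. The count was 248 without IgG, 266 without the library block and 325 with DESeq2. The genes named as changed passed in every alternative run for this contrast unless stated.

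Ifng read 649, 1008, 404 and 694 CPM in Cd8-only rule cells and 187, 172, 288 and 191 CPM in other Cd8-only T cells, a log2 fold change of 1.69 ± 0.19 SE, adjusted p = 3.69e-06. The lowest rule-cell value, in C, was above the highest of the others. Xcl1, which draws dendritic cells of the cross-presenting type, read 595, 313, 416 and 281 CPM against 113, 91.9, 200.2 and 55.4 CPM (1.85 ± 0.16 SE, adjusted p = 8.3e-08), without overlap. Lta rose by 2.14, while Ccl5, the chemokine of memory and effector CD8 cells, fell by 1.84 on the log2 scale. Of 16 type 1 factors and receptors 7 rose and 3 fell (median 0.53). Of 11 TNF ligands 5 rose, Tnfsf8 included, and 1 fell (median 0.67).

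Tnfrsf4, which encodes OX40, read 479, 355, 348 and 471 CPM in Cd8-only rule cells and 100.3, 89.5, 109 and 115 CPM in other Cd8-only T cells, a log2 fold change of 1.98 ± 0.10 SE, adjusted p = 1.26e-10. Every rule-cell value lay far above the highest of the others. Tnfrsf18 (GITR) rose by 1.00 and Tnfrsf9 (4-1BB) by 0.65, and of 20 costimulatory receptors 8 rose and 0 fell. Il1r2 read 134, 93.2, 77.7 and 161 CPM against 34.3, 16.9, 45.9 and 37.5 CPM (1.80 ± 0.20 SE, adjusted p = 3.69e-06). Il2ra, the high-affinity chain of the interleukin 2 receptor, rose by 1.60, and Il18r1 and Il18rap, the interleukin 18 receptor chains, by 1.15 and 1.12. Of 28 cytokine receptors 7 rose and 1 fell, with a median of -0.19. Pdcd1 did not pass (0.18), and Lag3 rose by 0.72.

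Among 24 factors induced by T cell receptor signalling, 11 rose and 2 fell in the Cd8-only class (median 0.53). Rel, an NF-kB subunit, read 234, 169, 118 and 164 CPM against 116, 65.1, 98.1 and 47.4 CPM (1.06 ± 0.16 SE, adjusted p = 0.000175), Bhlhe40 rose by 0.86 and Hif1a, the oxygen-regulated factor, by 0.91. Klf2 and Lef1 fell by 1.46 and 1.35 on the log2 scale. Gata3 read 93.1, 57.5, 60.2 and 65.8 CPM against 36.9, 39.04, 36.97 and 30.7 CPM, a log2 fold change of 0.91 ± 0.17 SE, adjusted p = 0.00167. That call was lost without IgG (adjusted p = 0.078) and with depth-matched cells (0.185), and its alternatives ranged over 0.00212 to 0.185. Tbx21 and Tcf7 did not pass, at 0.09 and -0.04.

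The cytotoxic genes moved in both directions: of 19 tested, 8 rose and 5 fell (median log2 fold change 0.25), so more rose than fell. Gzmk, the granzyme of memory-like CD8 cells, read 13.6, 19.8, 13.6 and 3.65 CPM against 61.1, 98.7, 34.8 and 85.8 CPM (-2.31 ± 0.26 SE, adjusted p = 3.69e-06), and Serpinb9b, a granzyme inhibitor, rose by 1.83. The groups of Gzmk did not overlap. Prf1, which encodes perforin, and Nkg7 did not pass (0.34 and -0.14). The other Cd8-only T cells carried more RNA of stromal cells: the summed fibroblast or tumor markers read 29.4 to 334 CPM in them and 0 to 18.3 CPM in the rule cells, and all 6 such genes tested were lower in the rule cells. Their part in the other differences was not tested. Under the stricter gate, which limits stromal, macrophage and NK genes and asks for 2 UMIs of the Cd3 genes (chosen after the data were seen), 507 genes passed, 415 of them among the 544.

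Over the 5753 genes tested in both classes, 109 were higher in both (42.2% of the 258 higher in Cd4-only cells and 46.6% of the 234 higher in Cd8-only cells) and 89 were lower in both (27.7% of 321 and 41.4% of 215), while 5 were called in opposite directions. The contrasts share no cells. Among the genes higher in both were Furin (1.13 ± 0.15 SE in Cd4-only and 1.29 ± 0.17 SE in Cd8-only cells), Gadd45b (1.62 and 1.65), Lta, Ifng, Il1r2, Bhlhe40, Lag3 and Tnfrsf4, and among those lower in both were Klf2, Lef1 and Itga4. Whether the size of any such change differed between the classes was not tested.

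**Figure D3:**
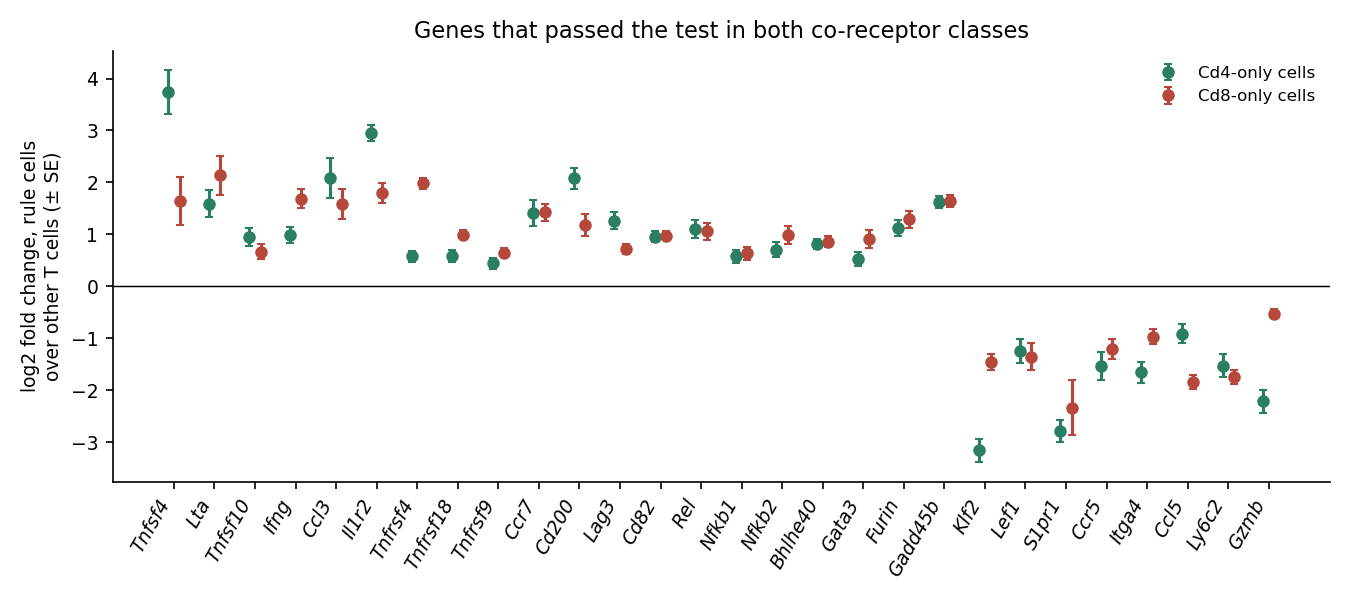
Log2 fold change with its standard error of rule cells against other T cells, within the Cd4-only and within the Cd8-only class, for genes called in both. Il1r2 is at 2.95 and 1.80, and Klf2 at -3.16 and -1.46.

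The rule cells also differed among themselves. Cd40lg, Gata3 and Maf read higher in Cd4-only rule cells, and perforin, granzymes and interferon gamma higher in Cd8-only rule cells. Of the rule genes, given as a description, Il13 had a UMI in 29 of 213 Cd4-only cells (13.6%), 1 of 128 Cd8-only cells (0.781%) and 6 of 54 cells with both co-receptors (11.1%). Penk was found in 46.5% of Cd4-only and 33.6% of Cd8-only cells, Ccl1 in 40.8% and 48.4%, Csf2 in 33.3% and 32.8%, and Tnfsf11 in 90.1% and 71.9%. By level, Csf2 read 594, 684, 731 and 333 CPM in the Cd4-only cells and 179, 127, 237 and 124 CPM in the Cd8-only cells, and Il13 309, 277, 475 and 70.4 CPM and 9.08, 0, 0 and 0 CPM. Ccl1 read 907, 561, 1673 and 1169 CPM and 170.3, 498, 276 and 406 CPM, and Penk 1089, 1612, 446 and 455 CPM and 211, 119, 192 and 94.999 CPM. The Cd8-only cells had more UMIs per cell, as given above. When a cell was assigned to the rule gene with the most UMIs, Cd4-only cells were 58.2% of the 110 cells led by Penk and 35.3% of the 51 led by Csf2.

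By edgeR's quasi-likelihood test with Benjamini-Hochberg adjustment, 406 of 4973 genes were higher in Cd4-only than in Cd8-only rule cells (8.16%) and 400 lower (8.04%), 16.2% in all, with Cd4, Cd8a, Cd8b1 and the rule genes left out. The count was 518 without C and 345 with DESeq2. The genes named in this comparison passed in every alternative run for it unless stated. Cd40lg read 99.4, 63.8, 41.5 and 70.4 CPM in Cd4-only and 2.27, 3.97, 0 and 3.65 CPM in Cd8-only rule cells, a log2 fold change of 4.64 ± 0.41 SE, adjusted p = 6.97e-06. Gata3 read 235, 168, 223 and 181 CPM against 93.1, 57.5, 60.2 and 65.8 CPM, a log2 fold change of 1.49 ± 0.15 SE, adjusted p = 1.68e-05. Neither gene's groups overlapped, but Cd40lg passed the filter before the test only through the Cd4-only cells. Maf was higher by 2.91, Runx1 by 2.01 and Lef1 by 1.55, and of 12 type 2 factors and receptors tested 8 were higher and 0 lower (median 0.88). Of 10 TNF ligands 8 were higher and 0 lower (median 1.41), Tnfsf8 included, with Cd70 at 2.63 and Lta at 1.41. Receptors higher in the Cd4-only cells included Il1r2 (1.91), Il2ra (0.90), Icos (1.02), Tnfrsf25 (2.46) and Tnfrsf4 (1.37).

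Cytotoxic genes formed the opposite pattern, with 1 of 17 higher and 13 lower in Cd4-only rule cells (median -1.86). Prf1 read 0, 0, 12.97 and 0 CPM in Cd4-only and 111, 212, 209.7 and 223 CPM in Cd8-only rule cells, adjusted p = 1.53e-06. Gzmb read 45.4, 89.01, 327 and 184 CPM against 1108, 1101, 1126 and 1114 CPM (-3.07 ± 0.30 SE, adjusted p = 1.87e-05). In both genes every Cd4-only value was below every Cd8-only value. Prf1 passed the filter before the test only through the Cd8-only cells. Gzmd, Gzme and Gzmf gave log2 fold changes of -5.99, -5.17 and -4.54. Ifng gave a log2 fold change of -1.47 ± 0.15 SE, adjusted p = 2.52e-05, and of 14 type 1 factors and receptors 1 was higher and 6 lower. Large changes outside the lists were those of Lgals7 (5.14), Ltb4r1, the receptor of leukotriene B4 (3.90), Ebi3, a subunit of interleukins 27 and 35 (3.18), and Marcks (3.17). In the other direction lay Spry2, a feedback inhibitor of ERK signalling (-3.86). The NK receptor Klre1, a member of the NK list, gave -2.69. Dendritic cell genes summed to 198 to 3636 CPM in Cd4-only and 131 to 851 CPM in Cd8-only rule cells, and of 5 tested 0 were called (median log2 fold change 2.32). Their part in these differences was not tested, and the stricter gate sets no limit on them.

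**Figure D4:**
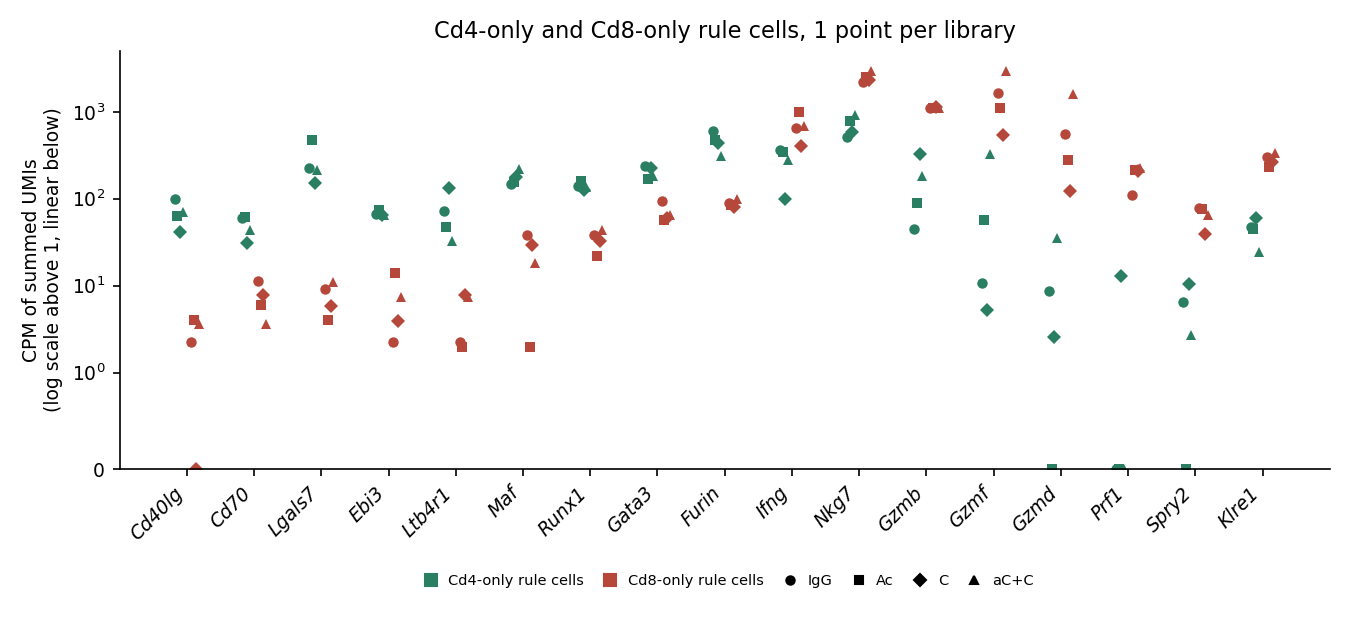
Summed level of genes that differ between Cd4-only and Cd8-only rule cells, in CPM on an axis that is linear near 0 and logarithmic above, 1 point per library and class. Cd40lg is at 41.5 to 99.4 in Cd4-only and 0 to 3.97 in Cd8-only rule cells, and Prf1 at 0 to 12.97 and 111 to 223.

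Since Penk and the other rule genes also occurred in T cells with Foxp3, the 213 Cd4-only rule cells were compared with the 405 Cd4-only cells that had Foxp3, in a contrast added after the data were seen. Of 5723 genes, 466 were higher (8.14%) and 551 lower (9.63%), 17.8% in all, by edgeR's quasi-likelihood test with Benjamini-Hochberg adjustment. The count was 606 without Ac and 484 with DESeq2. Of 10 TNF ligands 9 were higher, Tnfsf8 included, and 1 lower (median 2.64), with Tnfsf4 and Cd40lg passing the filter only through the rule cells. Tnfsf4 read 34.6, 60.5, 20.7 and 37.9 CPM in rule cells and 0, 1.06, 2.67 and 0 CPM in cells with Foxp3, a log2 fold change of 5.06 ± 0.52 SE, adjusted p = 1.27e-05. Cd40lg read 99.4, 63.8, 41.5 and 70.4 CPM against 4.50, 6.37, 5.34 and 14.4 CPM (3.28 ± 0.32 SE, adjusted p = 8.25e-06), and Ifng 361, 341, 98.6 and 279 CPM against 22.5, 7.43, 111 and 20.6 CPM (2.94 ± 0.56 SE, adjusted p = 0.00208). The groups of Tnfsf4 and Cd40lg did not overlap. Of 11 regulatory T cell genes tested 7 were lower and 1 higher. Il2ra, Ctla4 and Ikzf2 gave -1.88, -1.61 and -3.09, Lrrc32, which presents TGF-beta on regulatory cells, gave -4.81, and the integrin gene Itgae gave -5.66. The higher one was Nrp1 (2.26). These named genes passed in every alternative run for this contrast.

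Between libraries, the rule genes differed in different directions. Among the rule cells, which these same genes selected, the Penk level of C and aC+C was below that of IgG and the Ccl1 level above it. The Tnfsf11 level of the rule cells stayed close to that of IgG. Over rule cells and other T cells together, Penk read 71.6, 90.4, 37.5 and 18.3 CPM and Ccl1 40.8, 58.7, 93.6 and 48.2 CPM. Tnfsf11 read 46.5, 45.5, 55.2 and 26.7 CPM there, Csf2 35.2, 45.4, 44.7 and 15.4 CPM, and Il13 12.3, 17.1, 41.2 and 2.29 CPM. Ratios are given with their exact 95% interval in parentheses. A UMI of Penk was found in 37.6%, 46.6%, 36.4% and 40.3% of the rule cells. For Ccl1 this share was 38.4%, 37.4%, 43.9% and 40.3%, so the shares of cells differed less between libraries than the levels. The ratio of Penk to IgG was 1.32 (1.21 to 1.44) in Ac, 0.46 (0.407 to 0.52) in C and 0.401 (0.343 to 0.468) in aC+C. For Ccl1 the ratios were 1.52 (1.35 to 1.70), 2.06 (1.85 to 2.30) and 1.97 (1.74 to 2.22). For Tnfsf11 they were 1.05 (0.927 to 1.20), 0.955 (0.833 to 1.09) and 0.824 (0.698 to 0.97), so that only the aC+C interval left out 1. Csf2 gave 1.40 (1.24 to 1.59), 1.15 (1.00 to 1.32) and 0.725 (0.603 to 0.869), and Il13 1.49 (1.21 to 1.83), 3.04 (2.53 to 3.67) and 0.308 (0.195 to 0.469). Il13 was highest in C and lowest in aC+C, but as given above 1 cell held 33.8% to 78.1% of it. The 3 comparisons share the IgG library, and with 1 library per treatment the ratios compare libraries and not treatments. The intervals count UMIs as independent, although the UMIs of 1 cell are not.

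Over genes that had 100 or more UMIs in the libraries compared, 16 of 3704 were at least 2 times higher in Ac than in IgG (0.432%) and 37 at least 2 times lower (0.999%). In C 8 of 3534 were higher (0.226%) and 19 lower (0.538%), and in aC+C 11 of 2992 were higher (0.368%) and 41 lower (1.37%). In aC+C against Ac 6 of 2885 were higher (0.208%) and 18 lower (0.624%), and in aC+C against C 12 of 2663 were higher (0.451%) and 26 lower (0.976%). Areg had ratios to IgG of 0.492 (0.418 to 0.577) in Ac and 0.24 (0.191 to 0.299) in C, against 0.734 and 0.533 in the other T cells, and 4.68 (3.71 to 5.96) in aC+C against C. In IgG 1 cell held 50.9% of the Areg UMIs and in Ac 1 cell held 33.2%, so both ratios to IgG rest in large part on single cells. Lgals7 was 3.46 (2.82 to 4.28) times IgG in Ac. Ifng stood at 1.52 (1.36 to 1.70) in Ac, where 1 cell held 43.4% of its UMIs, and the ratios of Ccl3 and Ccl4 in Ac rested on 1 cell that held 68.5% and 73.5% of them.

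**Figure D5:**
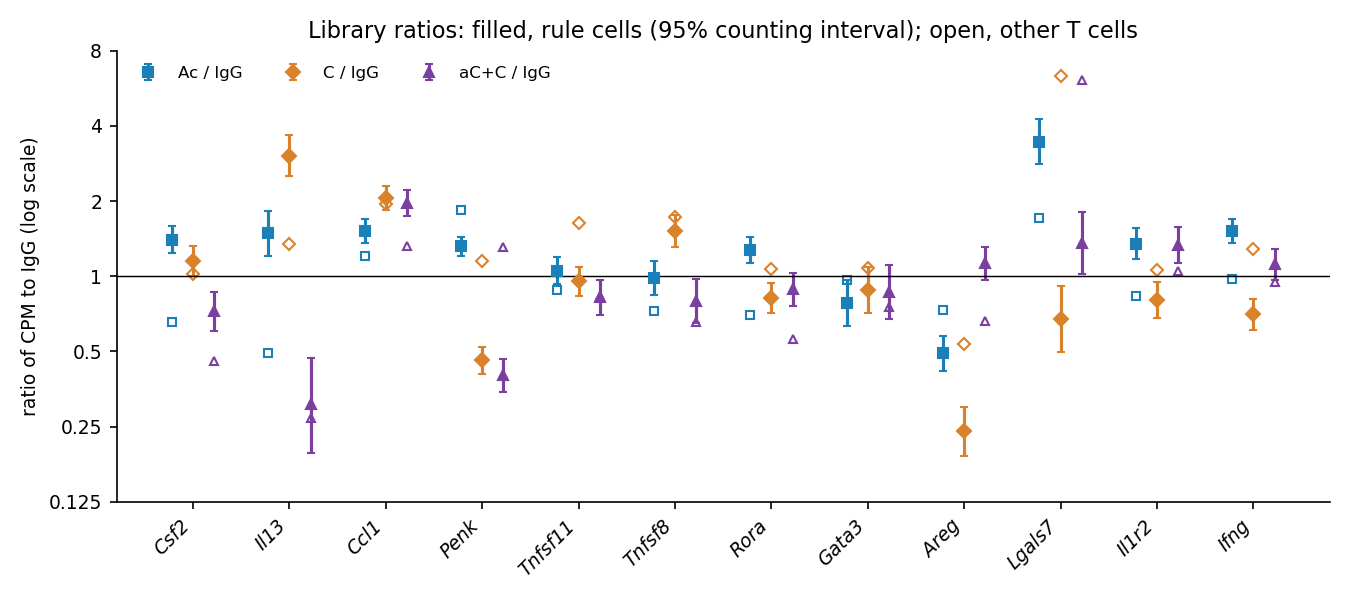
Ratio of each library's level to that of IgG for 12 genes on a logarithmic axis; filled points are rule cells with the exact 95% interval for counting error, open points the other T cells. In the rule cells Penk lies below 1 in C and aC+C, and Ccl1 above 1 in all 3.

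Markers of other cells were low in the rule cells, with exceptions. The 7 macrophage genes summed to 73.99 to 133 CPM in rule cells, 64.6 to 182 CPM in other T cells and 19728 to 26279 CPM in macrophage-like cells. The mast cell and basophil list read 0.805 to 52.3 CPM, with Cpa3, Ms4a2 and Fcer1a at 0. Markers of type 2 innate lymphoid cells read 249 to 547 CPM against 124 to 154 CPM, a list that includes Gata3 and Areg, which helper T cells also express. Dendritic cell genes read 160.0 to 1255 CPM against 488 to 1491 CPM. In Cd4-only rule cells they read 1793, 198, 3636 and 219 CPM, in other Cd4-only T cells 2885, 163, 2029 and 1124 CPM, and in Cd8-only rule cells 131 to 851 CPM. NK genes read 174 to 619 CPM against 408 to 795 CPM. Regulatory T cell genes other than Foxp3 read 689 to 819 CPM against 489 to 593 CPM. In the Cd4-only class they read 819, 732, 755 and 1118 CPM in rule cells and 1059, 1544, 1052 and 1018 CPM in others. There the rule cells were lower in every library but aC+C. In the Cd8-only class they read 570 to 738 CPM against 446 to 558 CPM. Fibroblast or tumor genes read 7.08 to 46.8 CPM against 358 to 1109 CPM. Their separate part in the results was not tested. A stricter gate (at least 2 UMIs of the Cd3 genes, and limits on stromal, macrophage and NK genes), chosen after the data were seen, was passed by 400 rule cells (90.9%) and 3904 other T cells (85.3%), and under it the shares of rule cells were 10.2%, 9.98%, 10.3% and 6.74%. For rule cells against other T cells, 1526 genes passed under this gate, of which 1038 were among the 1532 called without it.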

How the data were processed

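The files used are deposited tables of UMI counts, not normalized, that the authors made with Cell Ranger 2.1.1 on mm10 per the submitters' processing notes, while the file headers name software version 3.0.2. The authors' barcode and gene lists give each matrix its names. From these counts, cells were kept by the limits given above, and marked doublets (Scrublet in scanpy 1.11.5, 0.8% per 1000 cells) were removed only as an alternative. UMIs were summed per library and cell population, sums of fewer than 10 cells were left out, and the sums were tested with edgeR 4.0.16 in R 4.3.3 (quasi-likelihood test, TMM, filterByExpr, library as a block, Benjamini-Hochberg adjustment over all genes tested, calls at 0.05). The filter kept a gene that was high enough in either population of a contrast, so some genes were tested only through the population where they were high. The rule genes were left out of counts and tests. The script was tested on simulated data with 200 changed genes.

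The library block pairs the 2 populations because both come from the same library. Intervals are exact (Clopper-Pearson for shares, conditional binomial for ratios, 95%) and cover counting error only. Alternatives were DESeq2 1.42.0, its size factors, other filters and limits, no library block and each library left out. Thinning drew each cell down to 1000 UMIs.

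Named are the rule genes, the co-receptors and Zbtb7b, and some of the most changed genes of the contrasts and library ratios. Some of the most abundant members of 31 lists (442 of 454 genes found) are also named. Further members of the lists were named after their values were seen. The rule, the members and the lists were chosen with earlier results of these data known.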

Additional observations from a re-analysis of the deposited data

How the results depend on the processing

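With each library left out in turn, calls ranged over 990 to 1437 for rule cells against other T cells, 357 to 494 within the Cd4-only class, 248 to 498 within the Cd8-only class, 518 to 734 between Cd4-only and Cd8-only rule cells, and 606 to 952 against cells with Foxp3. DESeq2 called 325 genes in the Cd8-only class, 228 in the Cd4-only class, 345 between the classes and 484 against cells with Foxp3. Comparison cells nearest in depth left 185 and 252 genes in the Cd8-only and Cd4-only classes, with fewer genes tested, and in the Cd4-only class they stayed shallower than the rule cells in sum.

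Without the replicate block, which pairs the populations of a library, the Cd8-only count was 266 and the others 1108 (all rule cells), 413 (Cd4-only), 679 (between classes) and 852 (Foxp3). The cause was not tested.

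The share of rule cells was 6.87%, 6.75%, 6.19% and 3.99% with a minimum of 5 UMIs of the 5 genes, and 12.1%, 10.9%, 12.4% and 8.5% after thinning to 2000 UMIs with 1 such UMI. Thinned to 1000 UMIs, 19.2%, 27.5%, 13.1% and 22.1% of rule cells were Cd4-only and 25.6%, 25.2%, 29.0% and 32.5% Cd8-only. The order of Cd4-only and Cd8-only cells thus turned in IgG, C and aC+C, while 52.8%, 46.6%, 57.0% and 44.2% had neither co-receptor. With a minimum of 5 UMIs, 69.4% of the aC+C cells were Cd4-only and 20.4% Cd8-only. With at least 50 UMIs per gene, 107 genes differed at least 2 times between Ac and IgG, 85 for C, 141 for aC+C, 74 between aC+C and Ac and 104 between aC+C and C, and the stricter gate left 34 for Ac.

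Of 7676 checks of called genes under alternatives, 6487 kept direction and call, 1183 lost the call and 6 turned sign. Under the stricter gate, rule cells against other T cells, Cd9 turned to 0.84, Egr1 to 0.0846, Fos to 0.15 and Marcks to 0.51 (log2). Il17a turned to 0.26 with comparison cells nearest in depth, and Gzme to 0.0577 with DESeq2 against cells with Foxp3. Il13 was found in 40 rule cells, and thinning to 1000 UMIs left it in 2.40%, 4.58%, 4.67% and 6.49% of them.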
